A study of Caenorhabditis elegans with 2 samples.

Results

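The nuclear genes of the mitochondrial respiratory chain and the ATP synthase were examined for regions recovered with ZTF-4, a zinc finger protein, in *Caenorhabditis elegans*. Members were the protein-coding genes of the WBcel235 assembly whose names begin with nuo-, sdha-, sdhb-, sdhd-, cyc-, ucr-, cox-, atp-, asb- or asg-, together with mev-1, isp-1 and gas-1. This rule gave 45 genes of the 19973 protein-coding genes on the nuclear chromosomes. By role they were 7 genes of complex I, 5 of complex II, 7 of complex III, 2 for cytochrome c, 7 for subunits of complex IV, 8 for its assembly and 9 of complex V. The 8 assembly genes (cox-10 and the cox- genes numbered above it) encode factors that build complex IV and are not themselves parts of the chain.

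The respiratory chain sits in the inner mitochondrial membrane. Complexes I and II pass electrons from NADH and succinate to ubiquinone, complex III hands them to cytochrome c, and complex IV uses them to reduce oxygen. Complexes I, III and IV pump protons, and complex V, the ATP synthase, uses the returning protons to make ATP. Most subunits are encoded in the nucleus, so their promoters can be bound by nuclear factors, while a few are encoded in mitochondrial DNA. In the worm, mutations in gas-1, mev-1 and isp-1 alter oxidative stress resistance and lifespan.

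Chromatin immunoprecipitation with sequencing (ChIP-seq) had been carried out on whole L2 larvae of strain OP322, with males and females pooled, in 2 biological replicates that form 1 group. The animals carried the integrated transgene wgIs322, an eGFP fusion of ztf-4, and the unc-119(ed3) mutation on chromosome III, and both replicates share this genotype. The promoter that drove the fusion and the tissues that expressed it were not given in the sources used here, and no untagged strain or control library was analysed here. Whole animals were used, so the cells in which a region was recovered cannot be told apart.

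The authors kept 1794 regions on the build ce11 as peaks, out of a pooled list of 30000. They did so by IDR, the irreproducible discovery rate, which weighs how well the ranking of regions repeats from replicate to replicate. Each replicate also had its own list of 30000 regions. Every region carries a signal value assigned by the authors, which ran from 60.2 to 843 over the peaks, with a median of 83.0. Its scale is not given, so signals and their ranks (1 is the highest) were mainly read within a list. Ratios of replicate signals are also given, and a difference in scale between the lists could shift them. The lists hold no read counts and library depth is unknown. A gene was said to have a peak when the summit of one lay within 500 bp of any of its annotated start sites, and to have a pooled region when the same held for the pooled list.

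A peak lay near 17 of the 45 members (37.8%), against 1034 of all 19973 protein-coding genes (5.18%). A pooled region lay near 36 members (80.0%), against 34.0% of all protein-coding genes. Among genes with a pooled region the share with a peak was 17 of 36 members (47.2%), against 15.2% of 6795 protein-coding genes. The members' pooled regions had a median signal of 56.8, against 27.3 over all protein-coding genes with a pooled region. Members' peaks alone had a median signal of 93.7, against 87.0. The peaks are the regions ranked 1 to 1794 by this signal, so the medians over peaks cover only genes past that level. With a window of 250 bp, 11 members had a peak, against 646 of all protein-coding genes (3.23%), and with the 897 peaks of highest signal 10 did, against 561 (2.81%). The members' share stayed above that of all protein-coding genes under both. These counts are a description of lists chosen with earlier results of these data known, and no test was made on them.

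By complex, counts were small. Complex IV subunits had a peak at 4 of 7 genes and complex V at 5 of 9, while complex I had 2 of 7, complex II 2 of 5, complex III 2 of 7, cytochrome c 1 of 2 and the assembly factors of complex IV 1 of 8. With 2 to 9 genes in a group, a single gene moves these shares widely, and their order depended on the setting. With a window of 250 bp, complex II had 2 of 5, complex V 3 of 9, and complex IV subunits 2 of 7. From the first 1794 regions of replicate 1 alone, complexes III and IV both had 3 of 7 and complex V had 4 of 9. A reciprocal setting required the overlap to cover a fixed share of both the peak and a top region of each replicate. Under it, complexes III and IV both had 2 of 7. This setting also dropped cox-5B and atp-1, whose peaks are 146 and 170 bp wide. The most common region width was 356 bp in replicate 1 and 344 bp in replicate 2. Both genes had peaks among the first 1794 regions of each replicate, and the part played by width was not tested. In the first 100 ranks of the pooled list stood 4 members, atp-1 and the complex IV genes cox-6B, cox-5B and cox-5A. A further 3 (cyc-1, cyc-2.1 and atp-2) were within the first 500, and the other 10 ranked lower. Those 4 highest member peaks were also narrower than the 364 bp most common in the list, as were 73 of the first 100 peaks and 126 of all 1794.

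**Figure D1:**
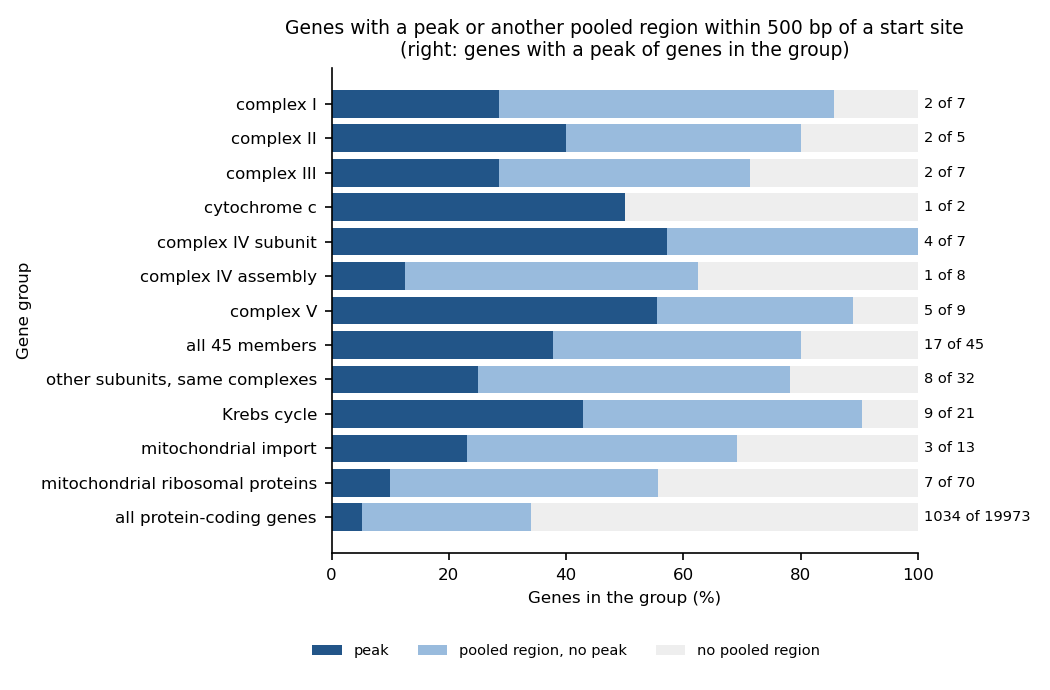
Share of genes (%, horizontal axis) with a peak (dark) or with another pooled region only (light) within 500 bp of a start site, for each complex and for comparison lists. Bars for complex IV subunits (4 of 7) and complex V (5 of 9) reach highest among the complexes, and all protein-coding genes (1034 of 19973) lie lowest.

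The DNA at the summits is shown for 1 peak of each class, for cox-6B as a further high peak, and for asb-2, which held the most of the words searched. Each line gives 101 bases, 50 on either side of the summit, read on the gene's strand from the RefSeq copy of WBcel235. Capitals mark words of 6 bases found on either strand. The 6 words were GAGAGA with its shifted form AGAGAG, the overlapping forms ACGCAG with the shifted form GACGCA, and further CGTCTC, as well as the word GAGCGC. They overlap one another in part and were picked from earlier results on these same peaks. The windows are nuo-1 (chrII:11097487-11097587, plus strand), sdha-1 (chrX:8546205-8546305, minus strand), ucr-2.2 (chrX:15173669-15173769, plus strand), cyc-2.1 (chrIV:4748626-4748726, minus strand), cox-5A (chrIII:12905158-12905258, plus strand), cox-6B (chrIII:2785980-2786080, plus strand), cox-14 (chrIII:10218725-10218825, plus strand), atp-2 (chrIII:5228113-5228213, plus strand) and asb-2 (chrX:4469432-4469532, plus strand).
nuo-1: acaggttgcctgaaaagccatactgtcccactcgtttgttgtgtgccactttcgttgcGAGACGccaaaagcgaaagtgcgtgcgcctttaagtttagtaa
sdha-1: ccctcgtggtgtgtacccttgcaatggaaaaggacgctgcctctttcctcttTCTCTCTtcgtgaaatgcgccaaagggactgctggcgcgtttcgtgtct
ucr-2.2: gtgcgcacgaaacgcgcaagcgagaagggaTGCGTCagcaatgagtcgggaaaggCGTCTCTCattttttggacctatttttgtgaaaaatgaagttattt
cyc-2.1: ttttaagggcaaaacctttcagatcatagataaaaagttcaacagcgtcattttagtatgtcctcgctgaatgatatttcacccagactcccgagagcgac
cox-5A: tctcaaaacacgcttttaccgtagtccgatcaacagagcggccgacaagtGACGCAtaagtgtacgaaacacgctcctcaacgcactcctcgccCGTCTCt
cox-6B: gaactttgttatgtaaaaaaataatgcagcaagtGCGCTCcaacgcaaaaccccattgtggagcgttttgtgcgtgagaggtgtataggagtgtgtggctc
cox-14: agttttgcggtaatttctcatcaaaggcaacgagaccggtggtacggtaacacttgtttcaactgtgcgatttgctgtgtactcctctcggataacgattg
atp-2: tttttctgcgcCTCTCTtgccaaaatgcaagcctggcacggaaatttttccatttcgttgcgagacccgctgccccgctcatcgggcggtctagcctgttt
asb-2: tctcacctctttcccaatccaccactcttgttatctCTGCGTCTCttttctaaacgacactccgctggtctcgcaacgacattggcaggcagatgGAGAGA

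At least 1 of the 6 words stood within 50 bp of 12 of the 17 member summits (70.6%), against 55.1% of 813 summits near other protein-coding genes, 50.7% of all peaks and 5404 of the 30000 pooled regions. CGTCTC was the most frequent among members, at 5 summits (29.4%), against 18.2% of those near other protein-coding genes. Those were nuo-1, mev-1, ucr-2.2, cox-5A and asb-2. ACGCAG stood at 4 member summits (23.5%), against 17.2% for other genes, and GACGCA also at 4, against 18.7%. GAGAGA stood at 3 (17.6%), against 23.4%. Both AGAGAG (19.6% for other genes) and GAGCGC (15.4%) stood at 3 member summits as well. Members were thus above other genes for some words and below for others, on counts of 3 to 5 summits. In asb-2, 3 of the words overlap in the longer capital run. The summits of nuo-2, cyc-2.1, cox-5B, cox-14 and atp-1 held none of the words in this window, and cox-5B and atp-1 were among the 4 highest. The bases of the chromosome I summits (nuo-2, cyc-1, cox-4, cox-5B, atp-1 and atp-3) are not printed here. GC content in the same window had a median of 48.5% for members (40.6% to 60.4%), against 46.5% for peaks of other protein-coding genes and 33.7% for all pooled regions. Peaks as a whole were richer in G and C than the pooled regions, and members lay close to other peaks in this.

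Complex I, the entry point for electrons from NADH, had 2 peaks among 7 genes, nuo-1 just above the median peak signal of 83.0 and nuo-2 below it. nuo-1, which encodes the flavoprotein subunit that binds NADH, had a peak of pooled signal 85.3 (rank 837) with its summit 300 bp upstream of the start site, at chrII:11097355-11097718. Its signal was 43.2 in replicate 1 (rank 776) and 41.5 in replicate 2 (rank 1237). nuo-2, for a subunit of the arm that projects into the matrix, had a peak of 64.7 (rank 1559), 123 bp upstream, at chrI:6531904-6532267, with 32.3 in replicate 1 (rank 1553) and 25.6 in replicate 2 (rank 3312). In replicate 2 the nuo-2 region therefore lay outside that replicate's own first 1794 regions. nuo-3, nuo-4, nuo-5 and nuo-6 had pooled regions of low signal, 15.8 to 23.0. gas-1, which encodes a core subunit next to the ubiquinone site, had no pooled region, and a region in replicate 2 alone (signal 25.7, rank 3294), 292 bp upstream. Its paralog nduf-2.2 had no pooled region either.

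Complex II, succinate dehydrogenase, links the Krebs cycle to the chain and had peaks at 2 of 5 genes. sdha-1, for the flavoprotein subunit that oxidises succinate, had a peak of 100.0 (rank 597), 234 bp upstream, at chrX:8546073-8546436. Its ratio of replicate 2 to replicate 1 signal (2.76) was the highest among the member peaks, at 26.8 in replicate 1 (rank 2485) and 73.9 in replicate 2 (rank 323). mev-1, for the membrane subunit that holds cytochrome b560, had a peak of 79.1 (rank 1013), 157 bp upstream, at chrIII:10333938-10334301, with 22.2 in replicate 1 (rank 4034) and 51.3 in replicate 2 (rank 758). Both complex II peaks thus ranked far higher in replicate 2, and neither was among the first 1794 regions of replicate 1. sdhb-1, for the iron-sulphur subunit, and sdhd-1, for the other membrane anchor, had pooled regions of 21.2 and 18.3. sdha-2, the paralog of sdha-1, had no region in any list.

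Complex III had peaks at 2 of 7 genes. The higher was cyc-1, which encodes cytochrome c1, with a pooled signal of 162 (rank 190), 300 bp upstream, at chrI:8024540-8024903. It gave 70.0 in replicate 1 (rank 257) and 87.9 in replicate 2 (rank 202), so its place was close in both. ucr-2.2, for a form of the core protein 2 subunit, had 74.1 (rank 1163), 185 bp upstream, at chrX:15173537-15173900, with 34.4 in replicate 1 (rank 1328) and 43.6 in replicate 2 (rank 1110). Its paralogs differed from it: ucr-2.1 had a pooled region of 58.8 that fell just short of the peak list, and ucr-2.3 had no region in any list. isp-1, for the Rieske iron-sulphur protein, had a pooled region of 54.7 (rank 2176), with 26.2 and 29.3 in replicates 1 and 2. ucr-1, for the core protein 1 subunit, had a region in replicate 1 alone, of signal 44.0 (rank 744), 157 bp upstream. ucr-11 had a pooled region of 28.7.

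Of the genes for cytochrome c, the soluble carrier between complexes III and IV, cyc-2.1 had a peak and cyc-2.2 had no region in any list. The cyc-2.1 peak had a signal of 112 (rank 474) at chrIV:4748494-4748857, with 53.6 in replicate 1 (rank 464) and 60.7 in replicate 2 (rank 518). Its summit lay in an intron of the gene, 227 bp upstream of the second annotated start site and 336 bp downstream of the 5′-most one. The replicate 2 summit was 118 bp from the pooled one, the widest shift among member peaks. The gene rpl-20, for a ribosomal protein, ends 110 bp before cyc-2.1 on the same strand and has a separate peak of 630.0.

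Complex IV, cytochrome c oxidase, held the highest signals. cox-5A, a nuclear-encoded subunit, had a peak of 377 (rank 15), 283 bp upstream, at chrIII:12905102-12905293, with 162 in replicate 1 (rank 19) and 219.7 in replicate 2 (rank 9). cox-5B, also a nuclear-encoded subunit, had 244 (rank 60) with its summit 26 bp downstream of the start site, at chrI:9788661-9788806, with 127 in replicate 1 (rank 39) and 119 in replicate 2 (rank 92). cox-6B, for a subunit on the side that faces cytochrome c, had 222 (rank 81) at chrIII:2785966-2786136, with 111 in replicate 1 (rank 67) and 113 in replicate 2 (rank 106). These 3 genes were therefore among the highest in both replicates. The cox-6B summit lay 172 bp upstream of the second annotated start site, 86367 bp downstream of the 5′-most one. cox-4 had a lower peak of 74.4 (rank 1158), 457 bp upstream, at chrI:13659403-13659766, with 26.4 in replicate 1 (rank 2593) and 47.6 in replicate 2 (rank 889). Its summit lay in an intron of an annotated pseudogene and was the farthest from a start site among the member peaks. The other subunit genes, cox-7C, cox-6C and cox-6A, had pooled regions of 40.1, 34.4 and 19.0, so every complex IV subunit gene in the list had at least a pooled region. A peak of 93.1 lay 781 bp upstream of cox-6A, outside the 500 bp window.

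Of the 8 genes for factors that assemble complex IV, 1 had a peak. It was cox-14, annotated in RefSeq as cytochrome c oxidase assembly factor 3, with a signal of 60.4 (rank 1776), 167 bp upstream, at chrIII:10218593-10218956. Its signals were 24.2 in replicate 1 (rank 3209) and 32.2 in replicate 2 (rank 2059), so it was the only member peak outside the first 1794 regions of both replicates. Pooled regions lay near cox-10, for the enzyme that makes haem O (51.7), cox-16 (26.2), cox-19 (24.6) and cox-18, for a factor that inserts a subunit into the membrane (21.5). No region in any list lay near cox-11 and cox-17, which carry copper, or near cox-15, for the enzyme that makes haem A.

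Complex V had peaks at genes for the catalytic head and for the stalk that holds it. atp-1, for the alpha subunit of the head, had a peak of 216 (rank 89) with its summit 7 bp upstream, at chrI:12652195-12652364, with 92.1 in replicate 1 (rank 115) and 124 in replicate 2 (rank 78). atp-2, for the catalytic beta subunit, had 111 (rank 482), 254 bp upstream, at chrIII:5227981-5228344, with 46.5 in replicate 1 (rank 650) and 64.6 in replicate 2 (rank 446). Both head subunits were among the first 1794 regions of each replicate. Of the stalk genes, asb-2, for subunit b, had 93.7 (rank 686), 284 bp upstream, at chrX:4469300-4469663, with 43.0 in replicate 1 (rank 790) and 54.2 in replicate 2 (rank 660). atp-3, for the oligomycin sensitivity protein that joins stalk and head, had 82.3 (rank 919), with the summit 18 bp downstream, at chrI:5429708-5430071, with 45.7 in replicate 1 (rank 688) and 36.3 in replicate 2 (rank 1607). These lay in the first 1794 regions of both replicates as well. asg-2, for subunit g of the membrane part, had 74.1 (rank 1161), 250 bp upstream, at chrX:6840826-6841189, with 26.9 in replicate 1 (rank 2477) and 41.2 in replicate 2 (rank 1261). The paralogs again differed, asb-1 having a pooled region of 37.8 and asg-1 no region in any list. atp-4 and atp-5, for other stalk subunits, had pooled regions of 29.9 and 31.3.

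**Figure D2:**
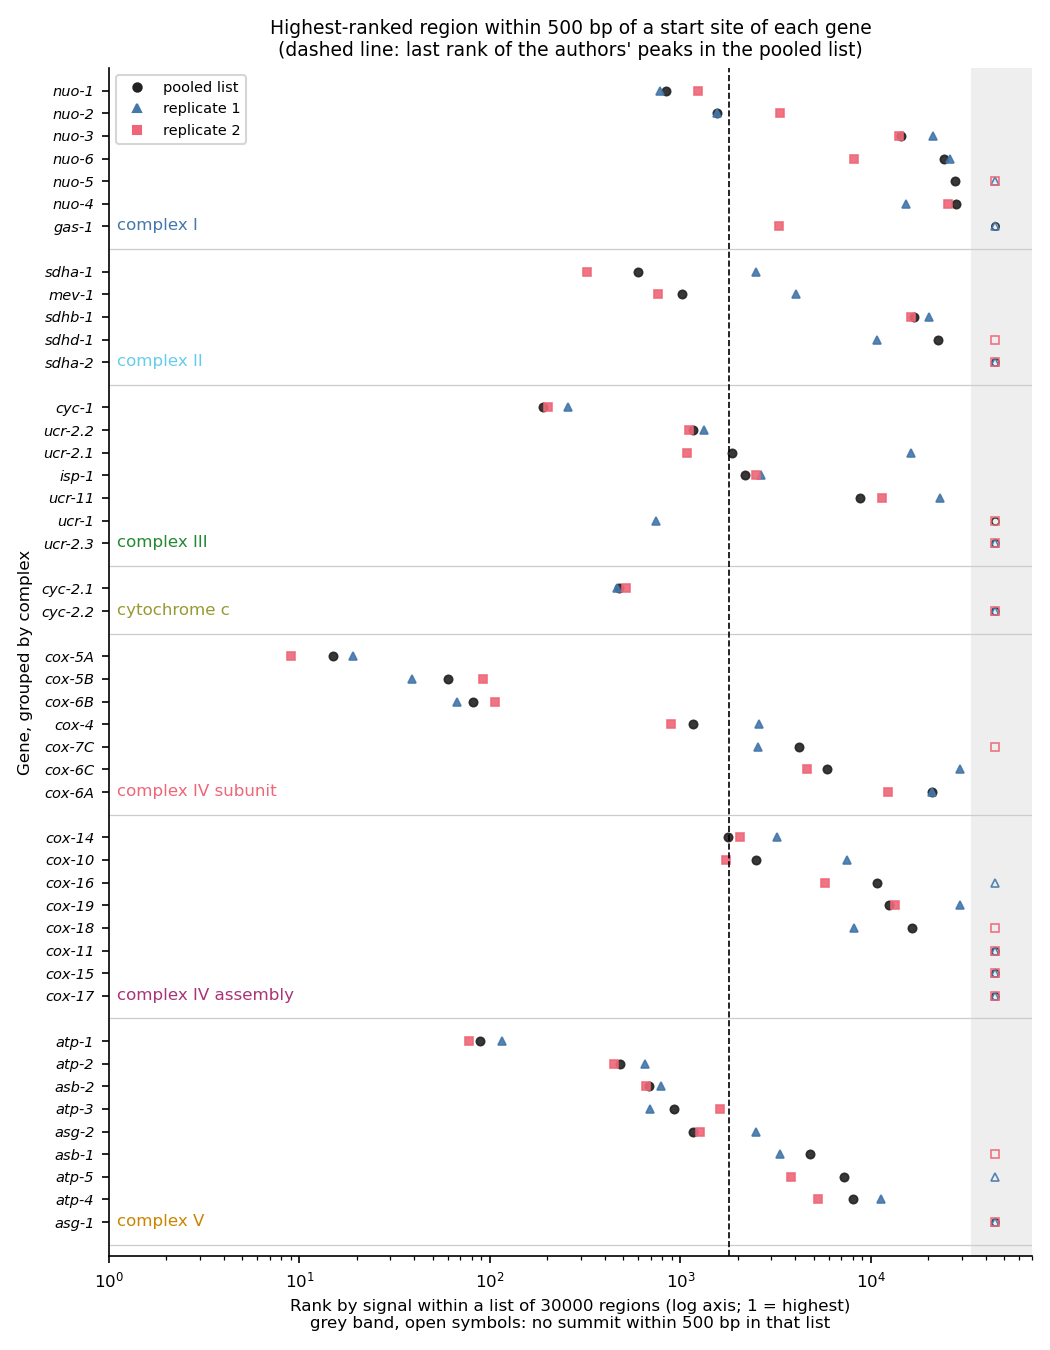
Rank by signal (log axis) of the highest region within 500 bp of each of the 45 members in the pooled list (circles), replicate 1 (triangles) and replicate 2 (squares), with the last peak rank, 1794, as a dashed line and open symbols where a list has no such region. atp-1 (89), cox-6B (81), cox-5B (60) and cox-5A (15) stand farthest left in the pooled list, and 7 genes have open symbols in all 3 lists.

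The 28 members without a peak fell into 3 groups. A pooled region lay near 19 of them, with signals of 15.8 to 58.8 (median 26.2), a region of a single replicate near 2 (gas-1 and ucr-1), and no region of any list near 7 (sdha-2, ucr-2.3, cyc-2.2, cox-11, cox-15, cox-17 and asg-1). Of the 19 summits, 13 lay upstream of the start site, and 7 of the regions ranked beyond 15000. These regions thus spread from just short of the peaks to the lower part of the pooled list. The 3 members with the highest regions short of the list were ucr-2.1, isp-1 and cox-10. ucr-2.1 (58.8, rank 1854) had 12.6 in replicate 1 (rank 16215) and 44.0 in replicate 2 (rank 1088). cox-10 (51.7, rank 2477) had 17.5 in replicate 1 (rank 7460) and 35.1 in replicate 2 (rank 1733). For both genes, replicate 2 alone had a region within 500 bp among its first 1794, whereas the regions near isp-1 ranked 2650 and 2496. The edge of the list is narrow here: cox-14, just inside it, had a signal of 60.4 and ucr-2.1, just outside it, 58.8, while the authors' −log10 q-value was 3.07 for cox-14 and 3.09 for ucr-2.1.

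**Figure D3:**
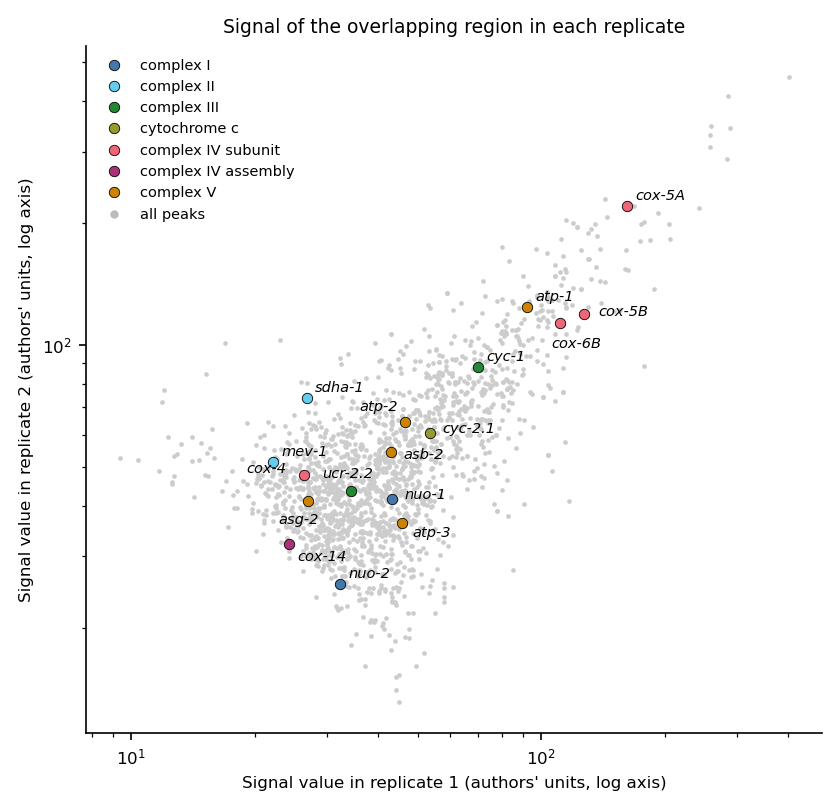
Signal in replicate 2 (vertical) against signal in replicate 1 (horizontal, both log axes, authors' units) of the regions that overlap each peak. The 17 member peaks are coloured by complex and named. Grey points are the 1787 peaks with a region in both replicates. cox-5A (162 and 219.7 in replicates 1 and 2) lies at the top right, and sdha-1 (26.8 and 73.9) has the highest ratio among members.

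Across the 17 member peaks, 11 were among the first 1794 regions of both replicates, 5 of 1 replicate only and 1, cox-14, of neither. Of all 1794 peaks, 1138 were among the first regions of both, a share close to that of the members. Of the 17 member peaks, replicate 1 placed 12 among its first 1794 regions and replicate 2 placed 15. Ranks ran from 19 to 4034 in replicate 1 (median 776) and from 9 to 3312 in replicate 2 (median 660.0). Counted from each replicate's own first 1794 regions, 13 members had such a region within 500 bp in replicate 1, against 4.81% of protein-coding genes, and 17 in replicate 2, against 5.21%. The ratio of replicate 2 to replicate 1 signal had a median of 1.27 for member peaks (0.793 to 2.76), against 1.19 for the 1787 peaks with a region in both replicates (0.291 to 6.46). By these signals, whose scales may differ between the lists, nuo-1, nuo-2, cox-5B and atp-3 were higher in replicate 1. By rank within each list, 6 member peaks stood higher in replicate 1 and 11 in replicate 2. Member summits repeated closely, within 50 bp of the pooled summit for 16 of 17 in each replicate, with widest shifts of 54 bp in replicate 1 and 118 bp in replicate 2. Shifts over all peaks were not counted, so this is not a trait set apart from other peaks.

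The summits lay mostly upstream of start sites, as those of other genes did. Of the 17, 15 were upstream (88.2%), against 912 of the 1017 other protein-coding genes with a peak (89.7%). The median position was 227 bp upstream for members and 185 bp upstream for other genes. Between 150 and 350 bp upstream lay 12 member summits (70.6%), against 490 of other genes (48.2%). This interval has the ends of the size range in the labels, was not among the planned results, and the contrast depends on it. From 200 to 300 bp upstream lay 8 members (47.1%) against 22.7%. Beyond 300 and up to 400 bp upstream lay 0 members against 15.3%. The 2 summits downstream belonged to cox-5B and atp-3, at 26 and 18 bp. Many worm transcripts are trans-spliced, and an annotated start may then mark the splice site, so a distance need not be measured from the site of initiation.

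**Figure D4:**
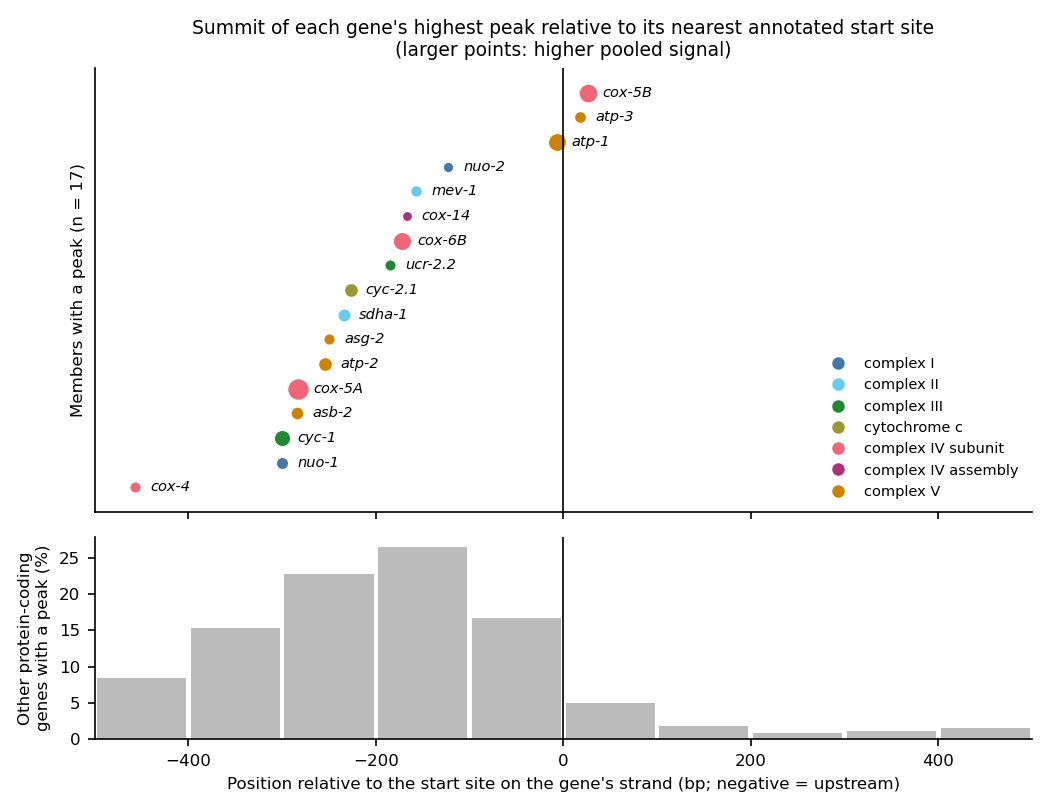
Position of the summit of each of the 17 member peaks relative to the nearest annotated start site (bp, negative is upstream; larger points have higher signal), above the distribution for other protein-coding genes with a peak (% of genes per 100 bp bin). 12 members lie between 150 and 350 bp upstream, and cox-5B (26 bp), atp-3 (18 bp) and atp-1 (7 bp upstream) lie at the start site.

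Member summits were often close to a start site of another gene as well. A start site of another protein-coding gene lay within 500 bp of the summit at 8 of 17 members (47.1%), against 399 of 1017 other genes with a peak (39.2%). In all 8 the other gene ran in the opposite direction, so the peak could be assigned to either. The neighbours were rpl-36.A (nuo-1), jmjd-4 (mev-1), Y71H2AM.20 (cox-6B), rde-4 (cox-14), mcrs-1 (atp-1), C34E10.10 and C34E10.12 (atp-2), F27C1.2 (atp-3) and glr-6 (asg-2). For mev-1, cox-6B and cox-14 the neighbour's start was nearer to the summit than the member's own, at 102, 82 and 129 bp. The sdha-1 summit lay 51 bp upstream of the small nucleolar RNA gene D2021.6 and in an exon of the noncoding RNA gene D2021.5. The nuo-1 summit lay in an exon of the noncoding RNA gene C09H10.13. The nuo-2 summit lay in an exon of T10E9.14, the protein-coding gene just upstream on the same strand, near its 3′ end. The 9 members whose summit had no other protein-coding start within 500 bp were nuo-2, sdha-1, cyc-1, ucr-2.2, cyc-2.1, cox-4, cox-5A, cox-5B and asb-2, and include the highest ones, cox-5A and cox-5B.

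Genes in worms are often transcribed in runs from a promoter upstream of several genes. When genes that follow each other on the same strand with gaps of 500 bp or less were joined, a grouping chosen after the data had been seen, 11 of the 28 members without a peak lay behind another gene. For 4 of them an upstream gene had a peak: syf-2 (89.8) before nuo-4, dad-1 (148) before ucr-11, lin-54 (324) before cox-11, and Y55F3AR.2 (232) before cox-18. Over all protein-coding genes, 3930 of the 18939 without a peak lay behind another gene, and for 448 an upstream gene had a peak. Counting those 4 members, 21 of 45 (46.7%) had a peak at their own or a leading gene, against 7.42% of all protein-coding genes. Of these 21, 17 had a peak of their own. Whether these genes are transcribed together was not tested.

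By chromosome, members with a peak were 6 of 12 on I, 1 of 5 on II, 5 of 11 on III, 1 of 6 on IV, 0 of 5 on V and 4 of 6 on X. Over all protein-coding genes the share was highest on III (8.45%) and lowest on V (3.26%), with 6.81% on I, 4.81% on II, 4.88% on IV and 4.61% on X. No list held a region on mitochondrial DNA, so the subunits encoded there could not be examined.

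Other genes of the same complexes and of related pathways also had peaks above the share of all protein-coding genes. Of 32 further genes for subunits and inhibitors of the complexes, 8 had a peak, against 5.18% of all protein-coding genes. In complex I these were ndua-8 (150.4), ndub-8 (119.8), nduf-11 (97.0) and ndus-8 (90.2). In complex V they were Y82E9BR.3, for the c subunit of the proton-driven ring (94.7), R04F11.2, for subunit e (69.1), and the inhibitor proteins mai-2 (75.9) and mai-1 (71.0). Joined with the members, complex V had peaks at 9 of 16 genes (56.2%), complex IV at 4 of 7 (57.1%), complex II at 2 of 5 (40.0%), complex I at 6 of 29 (20.7%) and complex III at 2 of 10. No gene was added to complexes II and IV by the wider list, so their counts are those given above, and no test was made.

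Of 21 genes of the Krebs cycle, pyruvate dehydrogenase and related dehydrogenases, 9 had a peak (42.9%). The cycle supplies the chain with NADH and succinate, though the list also holds cytosolic or NADP-linked relatives (idh-1, idh-2 and mdh-1). Those with a peak were dld-1 (242), for a subunit shared by the pyruvate and 2-oxoglutarate dehydrogenases, cts-1, for citrate synthase (119.7), aco-2, for aconitase (85.9), sucl-1, for a succinyl-CoA ligase subunit (81.2), fum-1, for fumarase (77.0), mdh-2, for malate dehydrogenase (68.9), and the isocitrate dehydrogenase genes idhg-1 (72.7), idh-1 (66.8) and idhb-1 (66.7). Mitochondrial protein import genes had peaks at 3 of 13 (23.1%), namely tomm-20 (92.3), tin-9.1 (82.0) and timm-23 (78.5). Mitochondrial ribosomal protein genes had peaks at 7 of 70, namely mrpl-28 (146), mrps-7 (123), mrpl-55 (119), mrpl-32 (111), mrpl-49 (103), mrps-17 (75.4) and mrpl-45 (71.7). At 37.8%, the members lay a little below the Krebs cycle list and above the import and ribosomal lists, a comparison without a test. With the 897 highest peaks the order was different, at 10 of 45 members and 3 of 21 Krebs cycle genes.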

How the data were processed

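ChIP-seq of eGFP-tagged ZTF-4 in 2 biological replicates of 1 group was used. The authors deposited region lists in narrowPeak format on ce11, per the file headers and labels: 1 list per replicate, 1 from both pooled, and the peaks kept by IDR. The signal of each region is the authors' deposited value. Its scaling, the aligner, the peak caller and the cut used for IDR were not given in the sources used here. For significance, the authors' −log10 q-value per region was read from the deposited ninth column. Lists on ce10 were not used, and no control library was analysed here. A size range of 150 to 350 bp is given per the labels.

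Genes and start sites came from Ensembl release 115 and bases from RefSeq, both WBcel235, and all region ends lay within its chromosomes. Summits were joined to start sites within 500 bp with Python 3.11.15, numpy 2.4.6 and pandas 2.3.3; figures used matplotlib 3.10.9. The joining step was tested on simulated summits. For a member with a peak, a replicate value is that of the region overlapping the peak. For a member without one, it is that of the highest region within 500 bp of a start site in that replicate's list. Such a region need not overlap the pooled one. Every member with a peak, the 3 highest without one, and every member of the other lists with a peak were named. With 1 group no test was made. Members and lists were chosen with earlier results of these data known. Alternatives were other windows, start-site rules, stricter or single-replicate peaks, and, chosen after seeing the data, same-strand runs.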

Additional observations from a re-analysis of the deposited data

How the results depend on the processing

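The number of members with a peak was 17, and 11 with a window of 250 bp (asb-2, atp-2, cox-4, cox-5A, cyc-1 and nuo-1 dropped out), 18 at 1000 bp (cox-6A added), 10 with the 897 highest peaks, 11 with the 1138 peaks in the top of both replicates, 9 by reciprocal overlap, 14 with the nearest start site only and 16 with the 5′-most start site only. From a single replicate's own first 1794 regions it was 13 to 17: without replicate 1, nuo-2 and cox-14 were lost and cox-10 and ucr-2.1 gained, and without replicate 2, sdha-1, mev-1, cox-4, cox-14 and asg-2 were lost and ucr-1 gained. At 250 bp complex I had 1, complex II 2, complex III 1, complex IV subunits 2, complex V 3, import genes 1 and all protein-coding genes 646. With the 897 highest peaks, complexes I, II and III had 1 each, complex IV assembly 0, complex V 3, import genes 1, other subunits 5, Krebs cycle genes 3 and all protein-coding genes 561. In the top of both replicates, complex I had 1, complex II 0, assembly 0, import 1 and Krebs 5. By reciprocal overlap these were 1, 0, 0, 1 and 5, with complex IV subunits 2, complex V 3 and all protein-coding genes 635. The nearest start site alone left complex II with 1 and assembly with 0. Over all protein-coding genes, 1368 had a peak at 1000 bp (6.85%) and 690 with the peaks in the top of both replicates (3.45%). The count over all protein-coding genes was 835 (4.18%) with the nearest start site only and 955 (4.78%) with the 5′-most start site only. Between leaving out replicate 1 and leaving out replicate 2, complex I ranged from 1 to 2, complex II from 0 to 2, complex IV subunits from 3 to 4, complex V from 4 to 5, assembly from 0 to 1 and import genes from 1 to 3, while complex III had 3 either way. With same-strand runs, assembly had 3 and mitochondrial ribosomal proteins 16. The cause of these changes was not tested beyond their construction from fewer peaks or a narrower window. Library depth is unknown, so what depth limits could not be assessed. No paired analysis was possible because the design has a single group and no test.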
